A study of Glycine max with 46 samples.

Results

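The RNA silencing machinery of soybean was described here through 39 genes of 56044, chosen because the description of their closest Arabidopsis protein names a Dicer, an Argonaute or an RNA-dependent RNA polymerase. There were 13 Dicer-like (DCL) genes, 19 Argonaute (AGO) genes and 7 RNA-dependent RNA polymerase (RDR) genes, and no gene whose description reads suppressor of gene silencing. The types used below (DCL2, AGO4 and so on) are those of the closest Arabidopsis gene in the deposited annotation. Short gene models made up 6 of the DCL and 8 of the AGO genes (coding sequence under 3000 bases for DCL, 2000 for AGO), and all 7 RDR models were longer than the minimum of 2500 bases set for that family. The AGO1 and AGO10 genes and the SGS3 genes carry other descriptions, so the choice missed them; they are given from a wider list of 99 related genes.

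In plants, Dicer-like enzymes cut long double-stranded RNA into small RNAs, Argonautes bind these and use them to find matching transcripts or loci, and RNA-dependent RNA polymerases copy single-stranded transcripts into new Dicer substrates. DCL1 makes microRNAs, DCL2 and DCL4 make small interfering RNAs (siRNAs) from viral and endogenous double-stranded RNA, and DCL3 with RDR2, AGO4 and AGO6 serves DNA methylation. In yellow soybean seed coats siRNAs against chalcone synthase, the first enzyme of flavonoid synthesis, silence the pathway to pigment, and DCL2 is the Dicer known to be needed for them; the DCL2-type genes Glyma.09G025300 and Glyma.09G025400 have neighbouring identifiers.

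The data were RNA-seq values for 46 libraries of soybean seed coats at several seed weights, whole seeds, leaves, roots and a flower, with 8 of them from seed coats dissected into the hilum (the seed's attachment scar) and the remaining coat. Weights are of the whole fresh seed. The pigmented coats were T157 (i R t, imperfect black), W44 (i RT w1, black, with an inversion at i) and W55 (black, with a 138 kb deletion at i; its late coats are labelled with another genotype, i-i RT w1, than its 5-6 mg coats and whole seeds, i R w1), and also UC9 (i R T W1, a black Clark mutant with the same 138 kb deletion) and RM38 (i r T W1, a brown Clark isoline). The yellow coats were Richland (I R t), the line in which the T157 mutation is compared, W43 (i-i RT w1, Williams, with a black hilum), the line W44 and W55 are set against, UC501 (I r T W1, Harosoy) and UC508, a Harosoy isoline with defective coats. Leaves came from 4-week plants of T157 and Richland. The young roots, of W55 and W54 (labelled as the W43 genotype), also came from 4-week plants. The W55 labels also include the genotype iRT w1. Flooded roots came from 5-day W43 seedlings after 12 or 24 h, and whole seeds from T157, Richland and W55 at 5 days after flowering. The flower came from a Williams isoline with purple flowers, and the dissected hilum and coat from Williams. The labels call the hilum dissections biological repeats. For the other libraries nothing says that those of a group came from separate plants. The p-values thus measure the spread between libraries, which may be technical. Within the T157, Richland, W44, W43 and late W55 coats, each library was of a different weight class. In comparisons of these coats the weights therefore stood in for replicates, and the SDs mix weights and, where lines are pooled, lines. In such bulk tissue fewer cells of a type and less RNA per cell cannot be told apart.

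Library totals, in units of 1000000 aligned reads, were 18.1 to 545.0 (median 113.4), so that 1 read on a 1 kb transcript was worth 0.00183 to 0.0553 RPKM (reads per kilobase of transcript per 1000000 aligned reads). In 3 libraries many reads fell on gene models with no description, 88.6% and 80.6% in the W55 5-6 mg coats and 56.2% in the W44 50-100 mg coat, against 7.58% to 18% in the others. These 3 libraries read low for nearly every member, and the comparisons that hold them are given also without them or on another scale. Leaf libraries carried 37300 to 76800 RPKM summed over 167 photosynthesis genes, against 105 to 119 RPKM in roots and 378 to 4140 RPKM in undissected coats; 29 root genes summed to 344 to 461 RPKM in young roots, against 38.5 to 39.8 RPKM in leaves.

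The AGO4 type held the most abundant members. Glyma.20G052500 reached 36.9 RPKM in a W55 whole seed, Glyma.02G274900 reached 29.4 RPKM in the UC9 coat and Glyma.14G041100 reached 26.1 RPKM in a hilum library. The AGO5-type gene Glyma.11G190900 reached 29.6 RPKM in the W55 root. At the other end 6 members never reached 1 RPKM in any library. They were the AGO2-type genes Glyma.09G020200 and Glyma.15G126700, the AGO4-type Glyma.06G314500, the AGO5-type Glyma.07G230800 and Glyma.07G231600, and the RDR1-type Glyma.07G171400. Glyma.07G231600 had no read in 36 of the 46 libraries and Glyma.07G230800 none in 29. The DCL genes lay in between, and DCL2-type Glyma.09G025300 stayed under 4 RPKM in every library, with its highest value, 3.58 RPKM, in the UC9 coat.

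**Figure D1:**
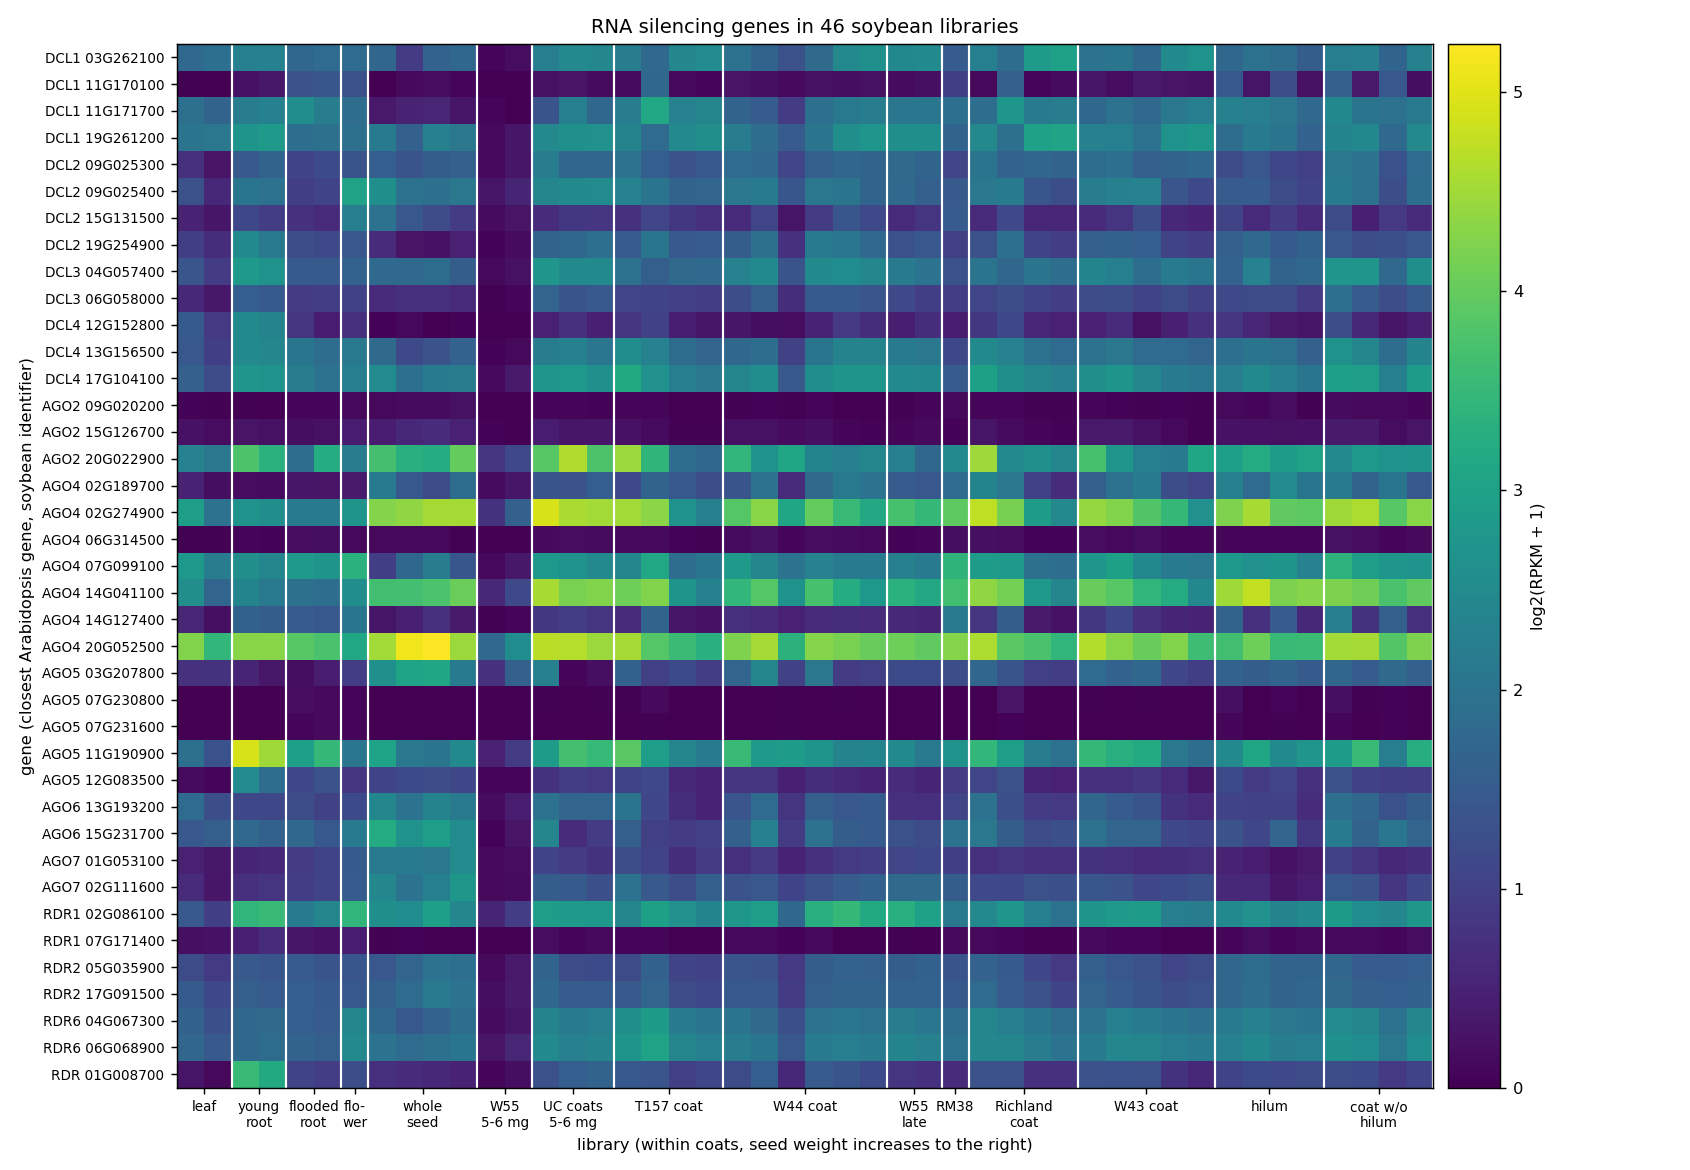
Colour gives log2(RPKM + 1) of each of the 39 genes (rows, by type) in each of the 46 libraries (columns, by tissue and line, with seed weight increasing to the right within coats). The 3 abundant AGO4 genes stand out in seed coats and whole seeds, and Glyma.20G052500 does so in leaves and roots as well. AGO5 Glyma.11G190900 stands out in young roots, and the W55 5-6 mg columns are dark for nearly all genes.

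In the dissected coats 28 members were expressed enough to test (mean of at least 1 RPKM), and 12 differed between hilum and the rest of the coat. Of these, 9 were lower and 3 higher in the hilum, set against 26.6% lower and 13.4% higher among all 29296 genes tested (40.0% called in all). The median member difference was -0.21 on the log2(RPKM + 1) scale, against -0.11 for all genes. All differences below are on that scale, which understates changes of weakly expressed genes, and all adjusted p-values are from limma with Benjamini-Hochberg adjustment over all genes tested.

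Most of the Dicer-like genes were lower in the hilum: 6 of 10 tested fell and 1 rose. DCL2-type Glyma.09G025300 had 1.34 and 1.69 RPKM in hilum of 25-50 mg seeds and 1.16 and 0.993 RPKM in hilum of 50-100 mg seeds, against 3.30 and 3.02 RPKM in coat of 25-50 mg seeds and 1.48 and 2.56 RPKM in coat of 50-100 mg seeds. One coat library, the first of 50-100 mg, was within the hilum range and the other 3 were above it. The means were 1.29 ± 0.299 RPKM in hilum and 2.59 ± 0.799 RPKM in coat (SD, n = 4 each), a difference of -0.62 ± 0.13 (SE, adjusted p = 0.00816). Its neighbour Glyma.09G025400 averaged 1.54 ± 0.385 RPKM in hilum and 2.61 ± 0.869 RPKM in coat, a difference of -0.48 ± 0.14 (adjusted p = 0.0299). The 2 full-length DCL4 genes, Glyma.17G104100 and Glyma.13G156500, differed by -0.49 ± 0.15 and -0.46 ± 0.14 (adjusted p = 0.031 and 0.0324). The DCL3 pair differed by -0.61 ± 0.21 for Glyma.04G057400 and -0.42 ± 0.13 for Glyma.06G058000 (adjusted p = 0.0495 and 0.0363). The lower group thus covered DCL2, DCL3 and DCL4. No DCL1-type gene passed the test, but the 4 DCL1 genes summed to 9.51 ± 1.87 RPKM in hilum and 11.8 ± 2.1 RPKM in coat. Whether the types differ in this was not tested. Of these lower DCL genes, Glyma.09G025300 alone was called in all 8 fits that left out 1 library, and each of the others in 2. The member that rose was a short DCL2-type model, Glyma.19G254900, with 2.11 RPKM in hilum and 1.54 RPKM in coat, 0.28 ± 0.10 higher (adjusted p = 0.0483). It was called in 1 of the 8 fits that left out 1 library.

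Of the 12 Argonautes tested, 3 were lower and 2 higher in the hilum. AGO6, which acts in DNA methylation, was lower in the hilum for both genes: Glyma.13G193200 had 1.08, 1.03, 1.06 and 0.587 RPKM in the hilum libraries, against 2.80, 2.32, 1.51 and 1.92 RPKM in the coat libraries. All 4 hilum values were under all 4 coat values, and the difference was -0.68 ± 0.12 (adjusted p = 0.00381), the smallest p among the members. Its relative Glyma.15G231700, a short model with overlapping values, differed by -0.65 ± 0.20 (adjusted p = 0.0368). Of the 8 fits that left out 1 library, 1 called Glyma.15G231700. The AGO4 type went both ways. Glyma.14G041100 had 21.4, 26.1, 17.4 and 18.4 RPKM in hilum, against 17.4, 16.3, 12.3 and 14.6 RPKM in coat. It averaged 20.8 ± 3.88 RPKM in hilum and 15.1 ± 2.20 RPKM in coat, 0.43 ± 0.09 higher (adjusted p = 0.00972). Glyma.20G052500 averaged 12.4 ± 2.49 RPKM in hilum and 18.7 ± 4.15 RPKM in coat, a difference of -0.55 ± 0.13 (adjusted p = 0.0116). Of this pair, Glyma.14G041100 was the more abundant in hilum and Glyma.20G052500 in coat, and the 7 AGO4 genes summed to 60.5 ± 9.67 RPKM in hilum and 64.5 ± 12.1 RPKM in coat. AGO2-type Glyma.20G022900, of a type known from antiviral defence, averaged 7.16 ± 0.836 RPKM in hilum and 5.37 ± 0.579 RPKM in coat without overlap, 0.36 ± 0.11 higher (adjusted p = 0.0299). It was called in 3 of the 8 fits that left out 1 library.

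None of the 6 RDR genes tested passed the threshold. The most abundant, RDR1-type Glyma.02G086100, averaged 4.67 ± 0.495 RPKM in hilum and 5.34 ± 0.869 RPKM in coat, a difference of -0.16 ± 0.11 (adjusted p = 0.307). The AGO7 pair, whose Arabidopsis relative drives trans-acting siRNAs, fell under the filter on low values. It is named here after its values were seen: Glyma.02G111600 had 0.503, 0.502, 0.249 and 0.330 RPKM in hilum, against 1.71, 1.53, 0.787 and 1.17 RPKM in coat, with no overlap. Fitted with no filter it differed by -0.71 (adjusted p = 0.00319) and Glyma.01G053100 by -0.40 (adjusted p = 0.0103).

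**Figure D2:**
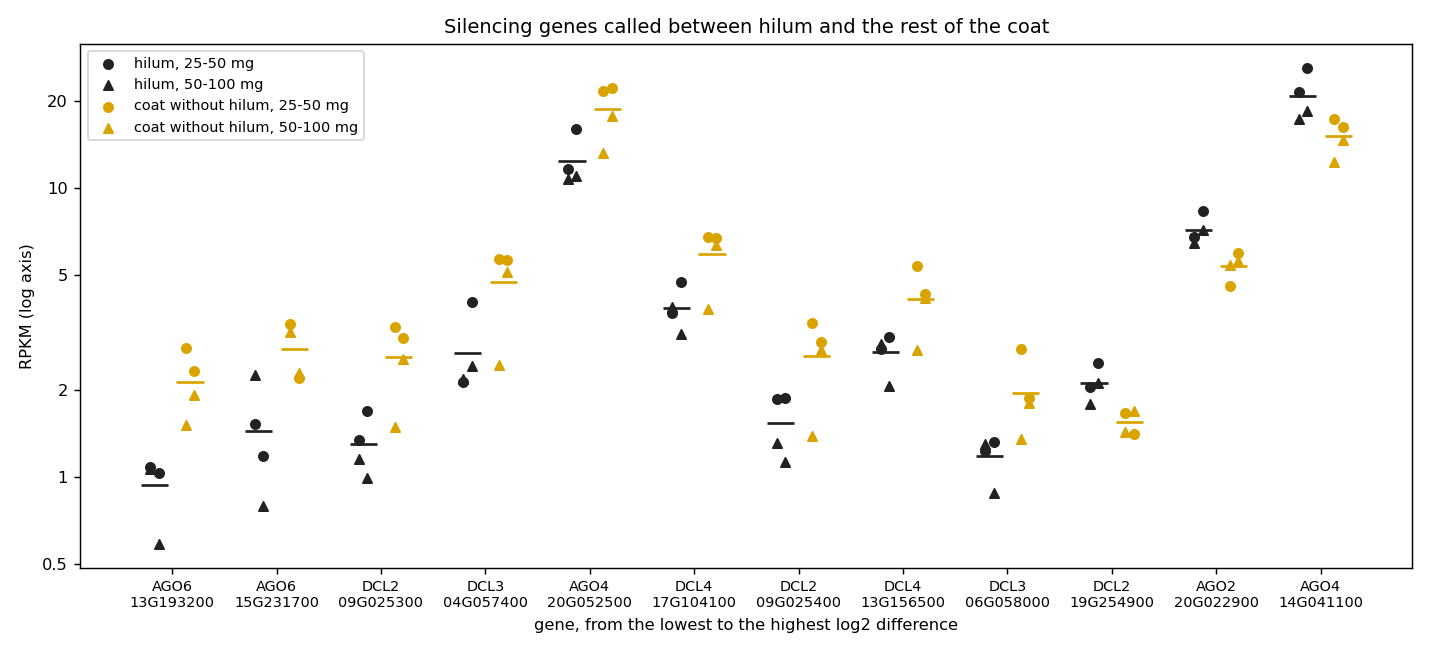
RPKM on a log axis of the 12 called genes in hilum (black) and in coat without hilum (yellow), 4 libraries each, with circles for 25-50 mg seeds, triangles for 50-100 mg seeds and lines at the means. The DCL3, DCL4, AGO6 and longer DCL2 genes and AGO4 Glyma.20G052500 sit lower in hilum, while AGO4 Glyma.14G041100, AGO2 Glyma.20G022900 and the short DCL2 model Glyma.19G254900 sit higher.

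Of the wider list, 26 of 74 genes tested fell in the hilum and 3 rose. SGS3, the partner of RDR6 in making double-stranded RNA, had the largest difference of the list: Glyma.08G184600 averaged 1.90 RPKM in hilum and 6.00 RPKM in coat (-1.27), and Glyma.15G048400 differed by -1.03. The list's DNA and histone methylation genes gave 13 lower and none higher of 28 tested, with the chromomethylase CMT3 gene Glyma.01G007800 at -1.10 and the DDM1 chromatin remodellers Glyma.11G067500 and Glyma.01G175300 at -0.93 and -0.88. The DRB2 double-stranded RNA binding protein gene Glyma.03G243600 differed by -0.82. Neither of the groups for RNA polymerase IV and V (6 tested) and for microRNA processing and export (13 tested) had a gene that fell. In the same libraries, 71 xylem and secondary wall genes summed to 560 to 1070 RPKM in hilum and 229 to 704 RPKM in coat, the list of seed storage genes summed to 1710 to 1860 RPKM in hilum and 3230 to 5310 RPKM in coat, and 29 root genes to 42.3 to 48.5 RPKM in hilum and 55.6 to 61.0 RPKM in coat. The storage and root sums did not overlap between the tissues, and the part of these differences in the results was not tested. Rescaled by the median ratio of the libraries, the share of called genes that were higher was 55.6%, against 33.5% as deposited, and the members gave 4 higher and 3 lower (Glyma.13G193200, Glyma.09G025300 and Glyma.15G231700). The 9 lower calls dropped to 3 or 4 when any of 6 of the 8 libraries was left out, all except the first hilum and the first coat library of 50-100 mg; Glyma.09G025300, Glyma.13G193200, Glyma.20G052500 and Glyma.14G041100 were called without each of the 8.

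The same 8 dissected libraries set 50-100 mg seeds against 25-50 mg seeds, with hilum and coat in both. No member was called by limma, with 7 of 28 at an unadjusted p under 0.05; 1.07% of all 29296 genes were called (0.386% higher, 0.683% lower). The AGO4 genes were the nearest. Glyma.02G274900 averaged 15.4 ± 2.36 RPKM at 50-100 mg and 21.2 ± 2.46 RPKM at 25-50 mg (adjusted p = 0.0871), and Glyma.14G041100 averaged 15.7 RPKM at 50-100 mg and 20.3 RPKM at 25-50 mg (adjusted p = 0.0917). With replicate number as a block, a split that follows the numbers in the library titles, limma called both lower. The differences were -0.45 and -0.34 (adjusted p = 0.0345 and 0.0431), and 8.98% of all genes were called. The most abundant DCL and RDR members, Glyma.17G104100 and Glyma.02G086100, differed by -0.29 ± 0.15 and -0.12 ± 0.11 (adjusted p = 0.262 and 0.561). Glyma.09G025300 averaged 1.55 RPKM at 50-100 mg and 2.34 RPKM at 25-50 mg, a difference of -0.38 ± 0.13 (adjusted p = 0.139).

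Across undissected coats, late coats (300-500 mg seeds, 8 libraries of T157, Richland, W44 and W43) were set against early coats (10-100 mg, 11 libraries of the same lines). Of 27 members tested 2 were higher and 10 lower late, against 26.6% higher and 31.1% lower among all 29263 genes (57.7% called). By family, 8 of 11 Argonautes fell, while the DCL genes gave 2 higher and 1 lower of 10 and the RDR genes 1 lower of 6. The median member difference was -0.25, against -0.03 for all genes.

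The 2 that rose were the full-length DCL1 genes. Glyma.03G262100 ranged from 4.36 to 7.04 RPKM late (median 4.99), against 1.46 to 3.81 RPKM early (median 2.66), with no overlap. It averaged 5.32 ± 0.965 RPKM late (n = 8) and 2.74 ± 0.664 RPKM early (n = 11), 0.73 ± 0.11 higher (adjusted p = 1.07e-05). Glyma.19G261200 averaged 5.75 ± 0.988 RPKM late and 3.25 ± 0.795 RPKM early, 0.66 ± 0.12 higher (adjusted p = 7.36e-05). The DCL2 genes parted: Glyma.09G025400 averaged 1.95 RPKM late and 3.35 RPKM early, a difference of -0.57 ± 0.13 (adjusted p = 0.00121), while Glyma.09G025300 averaged 2.11 ± 0.315 RPKM late and 2.34 ± 0.548 RPKM early, a difference of -0.10 ± 0.11 (adjusted p = 0.486). Whether the 2 genes differ in this was not tested.

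The Argonautes that fell belonged to 4 types. AGO5-type Glyma.11G190900 ranged from 2.72 to 4.26 RPKM late, against 5.56 to 14.0 RPKM early, with no overlap and a difference of -1.04 ± 0.15 (adjusted p = 7.12e-06); AGO5-type Glyma.03G207800, a short model, differed by -0.62. AGO4-type Glyma.02G274900 averaged 6.83 ± 2.61 RPKM late and 17.3 ± 4.93 RPKM early, a difference of -1.24 ± 0.21 (adjusted p = 5.72e-05). Glyma.14G041100 averaged 5.86 ± 1.76 RPKM late and 13.7 ± 4.13 RPKM early (-1.11 ± 0.20), and the short AGO4 model Glyma.07G099100 differed by -0.62. The third abundant AGO4 gene, Glyma.20G052500, averaged 13 RPKM late and 18.1 RPKM early (adjusted p = 0.0507). Summed over the type, AGO4 came to 30.9 RPKM late and 57.9 RPKM early (61.0 RPKM without the W44 50-100 mg library). AGO6 was lower for Glyma.13G193200 (-0.58) and Glyma.15G231700 (-0.44, adjusted p = 0.0189). AGO2-type Glyma.20G022900 averaged 4.21 ± 1.65 RPKM late and 9.59 ± 6.34 RPKM early, -0.92 ± 0.29 (adjusted p = 0.0104). Its 2 highest early libraries were those of 10-25 mg, T157 with 21.1 RPKM and Richland with 21.4 RPKM. Among the RDR genes, Glyma.01G008700, whose closest Arabidopsis gene has no symbol in the annotation, averaged 0.946 RPKM late and 1.5 RPKM early (-0.36, adjusted p = 0.0196).

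**Figure D3:**
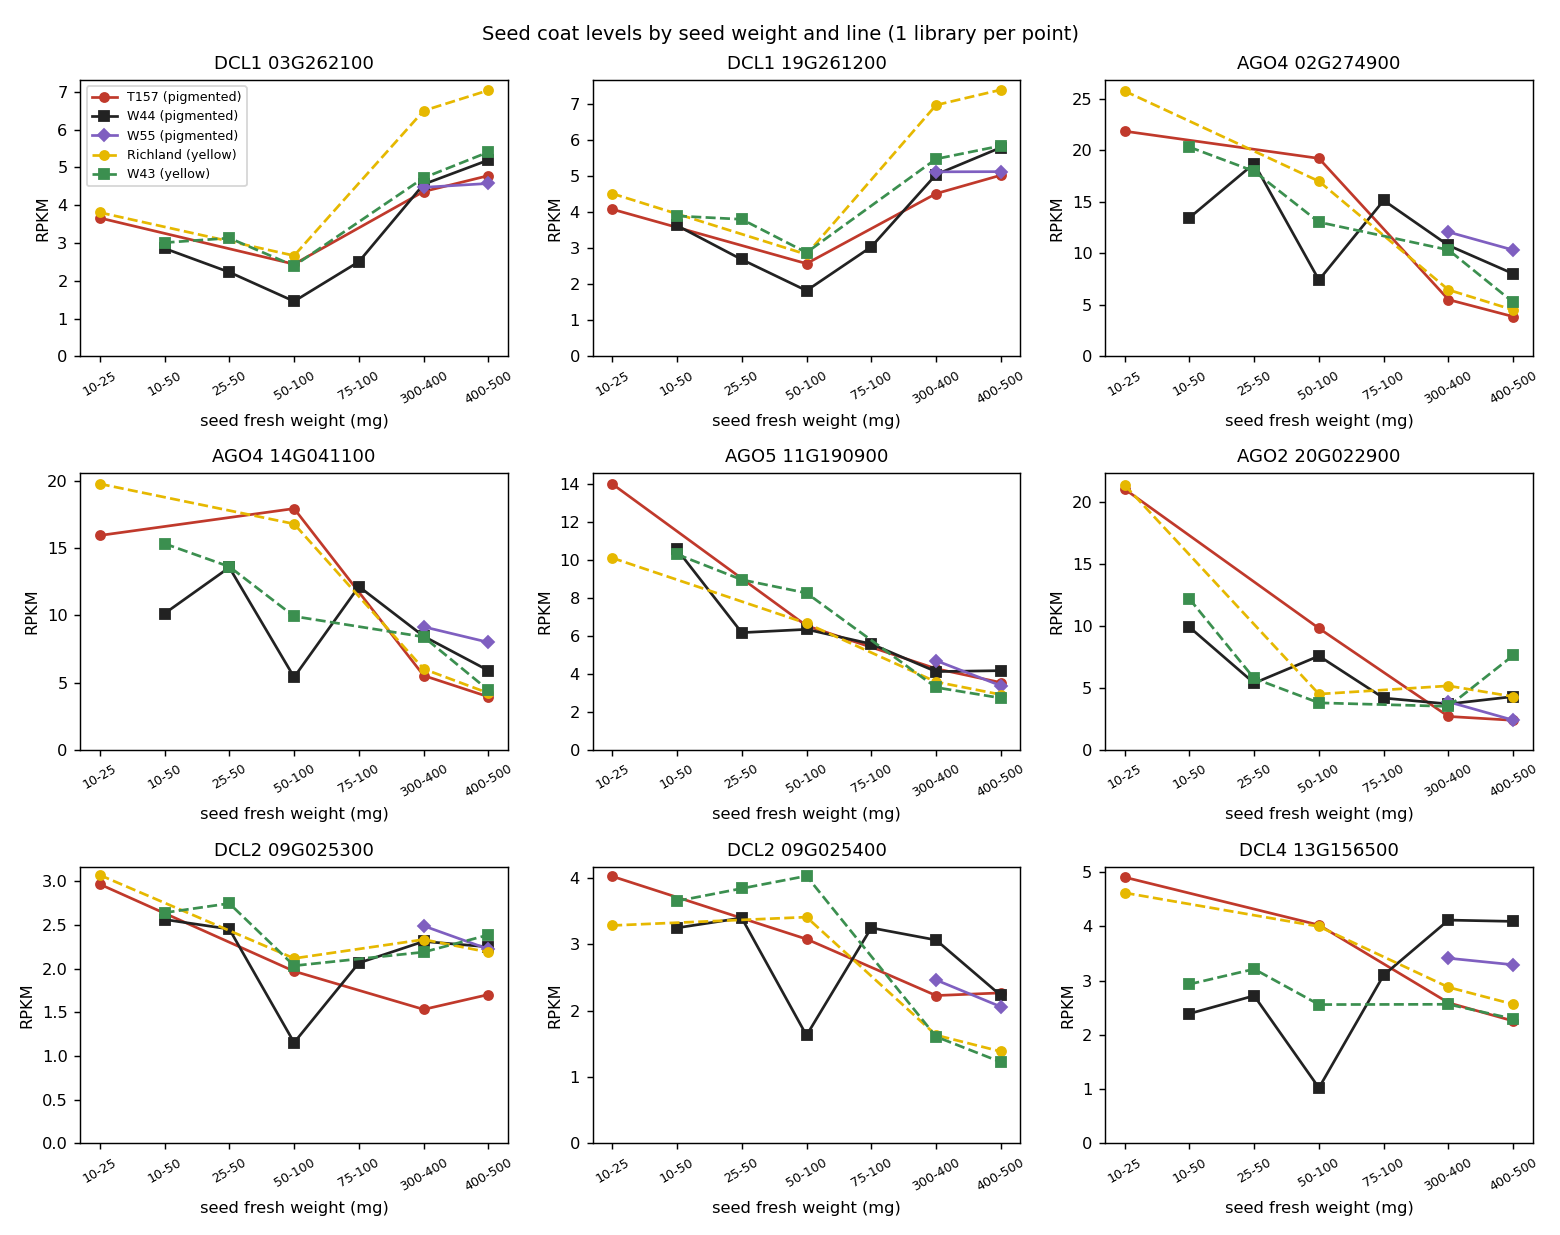
RPKM (y axis) against seed weight class (x axis, mg) for 9 members, 1 point per coat library, with lines joining the libraries of a line (solid for pigmented, dashed for yellow). The DCL1 genes sit higher and the AGO4 and AGO5 genes lower at 300 to 500 mg in T157, Richland and W43, and the W44 50-100 mg library lies low for DCL2, DCL4 and AGO4.

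The late libraries of T157, Richland and W43 carry title numbers of another series than most of the early ones. A series here is inferred from runs of title numbers alone. For these lines weight and series cannot be told apart. Within the 4 W44 libraries that share a series, 2 late and 2 early (25-50 and 75-100 mg, which leaves out the 2 other early W44 libraries), both DCL1 genes were again higher (Glyma.03G262100 by 0.80, Glyma.19G261200 by 0.73), DCL4-type Glyma.13G156500 was higher too (0.39), and 5 members were lower, among them Glyma.02G274900 (-0.79), Glyma.14G041100 (-0.78) and Glyma.11G190900 (-0.42). The share of all genes called within W44 is not given here, so these counts cannot be read as particular to the members. In the T157 and Richland libraries Glyma.02G274900 differed by -1.86 and Glyma.13G156500 by -0.59, and in the W44 and W43 libraries by -0.75 and 0.27. The difference between these pairs of lines was called for no member on the deposited scale (adjusted p = 0.265 and 0.272). On rescaled values it was called for both, at -0.91 (adjusted p = 0.0467) and -0.70 (adjusted p = 0.0287).

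Of the wider list, 28 of 72 genes tested were lower late and 5 higher. DNA and histone methylation genes made up 17 of the lower ones, of 26 tested, with 1 higher. The genes with the largest differences were AGO10-type Glyma.20G151400 (-1.49), CMT1-type Glyma.01G160300 (-1.38), DDM1-type Glyma.11G067500 and Glyma.01G175300 (-1.33 each), CMT3-type Glyma.01G007800 (-1.31) and DRB2-type Glyma.11G145900 (-1.25). The microRNA processing and export group gave 2 higher and none lower of 13. Without the W44 50-100 mg library the members called lower came to 17 and higher to 2, beside 40.1% lower and 29.0% higher among all 29396 genes then tested. The 7 added were AGO4-type Glyma.20G052500 (-0.49), both RDR6 genes (Glyma.04G067300 -0.26, Glyma.06G068900 -0.21), both RDR2 genes (Glyma.05G035900 -0.24, Glyma.17G091500 -0.23), DCL4-type Glyma.17G104100 (-0.34) and the short DCL2 model Glyma.19G254900 (-0.35).

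No member was called between pigmented and yellow coats in any of the comparisons of lines. Pooled over weights, 11 pigmented libraries (T157, W44, W55) and 9 yellow ones (Richland, W43) gave 0 of 27 members by limma, with 3 at an unadjusted p under 0.05 and a smallest adjusted p of 0.597. Among all 29063 genes 0.00688% were called. The 2 full-length DCL1 genes were lower in the pigmented library in all 11 matched pairs, although the means differed little. The short DCL1 models went both ways, with Glyma.11G171700 higher in 5 pairs and Glyma.11G170100 in 4. The late W44 and W55 pairs share their W43 libraries, and the share of all genes lower in all 11 pairs was not computed. Glyma.19G261200 averaged 4.13 ± 1.29 RPKM in pigmented and 4.84 ± 1.67 RPKM in yellow coats, a difference of -0.25 ± 0.08 (adjusted p = 0.597), and Glyma.03G262100 differed by -0.23 ± 0.08 (adjusted p = 0.62). Scaled over described genes only, 10 of the 11 pairs were lower for each. AGO7-type Glyma.02G111600 averaged 1.93 RPKM in pigmented and 1.37 RPKM in yellow coats, 0.26 ± 0.10 higher (adjusted p = 0.648), with 8 of 11 pairs higher.

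DCL2-type Glyma.09G025300 did not separate the colours. It averaged 2.15 ± 0.519 RPKM in pigmented and 2.41 ± 0.342 RPKM in yellow coats, a difference of -0.14 ± 0.08 (adjusted p = 0.772), and was lower in 9 of 11 pairs. By line it averaged 2.04 ± 0.641 RPKM in T157 and 2.43 ± 0.439 RPKM in Richland (-0.19 ± 0.09, adjusted p = 0.384; n = 4 each). In W44 it averaged 2.14 ± 0.57 RPKM and in W43 2.40 ± 0.299 RPKM (-0.13 ± 0.14, adjusted p = 0.872, n = 5 each). This W44 mean includes the 50-100 mg library, with 1.15 RPKM. Scaled over described genes only, the W44 pairs averaged -0.02, and 8 of the 11 pairs over all lines were lower. The late W55 coats had 2.49 and 2.22 RPKM, against 2.19 and 2.38 RPKM in the W43 coats of the same weights. The W44 and W55 comparisons share the W43 libraries. The ranges of pigmented and yellow libraries overlapped in all 3 comparisons.

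Of the most abundant members pooled over lines, AGO4-type Glyma.20G052500 averaged 15.2 ± 4.48 RPKM in pigmented and 16.3 ± 5.05 RPKM in yellow coats (-0.09 ± 0.11, adjusted p = 0.938). DCL4-type Glyma.17G104100 averaged 4.70 ± 1.59 RPKM in pigmented and 4.63 ± 1.15 RPKM in yellow coats (-0.01 ± 0.13, adjusted p = 0.996). In T157 and in W44 these genes differed by -0.10 and -0.10 (Glyma.20G052500) and by -0.01 and -0.02 (Glyma.17G104100). The T157 and W44 values are means over all matched weights, and those of W44 include its low 50-100 mg library. The W55 pairs are of late coats only. Glyma.17G104100 was higher than in W43 in both late W55 pairs, by 0.35 ± 0.04 on average (SD, n = 2). W44 coats of these late weights were also above W43 for this gene. The AGO4 genes Glyma.02G274900 (0.54 ± 0.46) and Glyma.14G041100 (0.42 ± 0.44) were higher in both W55 pairs as well. Glyma.20G052500 (0.08 ± 0.36) and AGO2-type Glyma.20G022900 (-0.62 ± 1.03) went both ways.

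In T157 against Richland limma called no gene at all (0.0% of 29080, with 4647 at an unadjusted p under 0.05), and 6 members had an unadjusted p under 0.05. Both RDR6 genes, whose type copies transcripts into double-stranded RNA, were among them with higher values in T157, Glyma.06G068900 by 0.34 ± 0.09 and Glyma.04G067300 by 0.27 ± 0.11 (adjusted p = 0.245 and 0.308). The short models Glyma.11G171700 (DCL1, 0.25) and Glyma.19G254900 (DCL2, 0.32) were higher in T157 as well, and AGO6-type Glyma.15G231700 (-0.40) and DCL1-type Glyma.19G261200 (-0.31) lower, with adjusted p of 0.25, 0.254, 0.239 and 0.275. Whether the T157 difference differs from the W44 difference was tested by limma for 27 members and called for none (2 at an unadjusted p under 0.05, smallest adjusted p = 0.881). In W44 against W43 no gene was called either (0.0% of 28909, with 1658 at an unadjusted p under 0.05), and no member had an unadjusted p under 0.05. Without the W44 50-100 mg library no member was called either. In late W55 against W43 coats no member was called, with 1 at an unadjusted p under 0.05, and 0.304% of all genes were (0.0761% higher, 0.228% lower). The 2 W55 and 2 W43 values did not overlap for 18 of 27 members, and for 59.7% of all genes. RDR1-type Glyma.02G086100, a type known from antiviral and salicylate responses, had 8.88 and 7.0 RPKM in late W55 coats and 10.2 and 8.12 RPKM in late W44 coats, against 3.72 and 3.63 RPKM in late W43 coats. These values did not overlap, but in early coats those of W44 and W43 did. The W55 coefficient, from a fit in which the lines share the weight effects, was 0.49 ± 0.41 (adjusted p = 1), and the pooled difference was 0.28 ± 0.18 (adjusted p = 0.83).

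**Figure D4:**
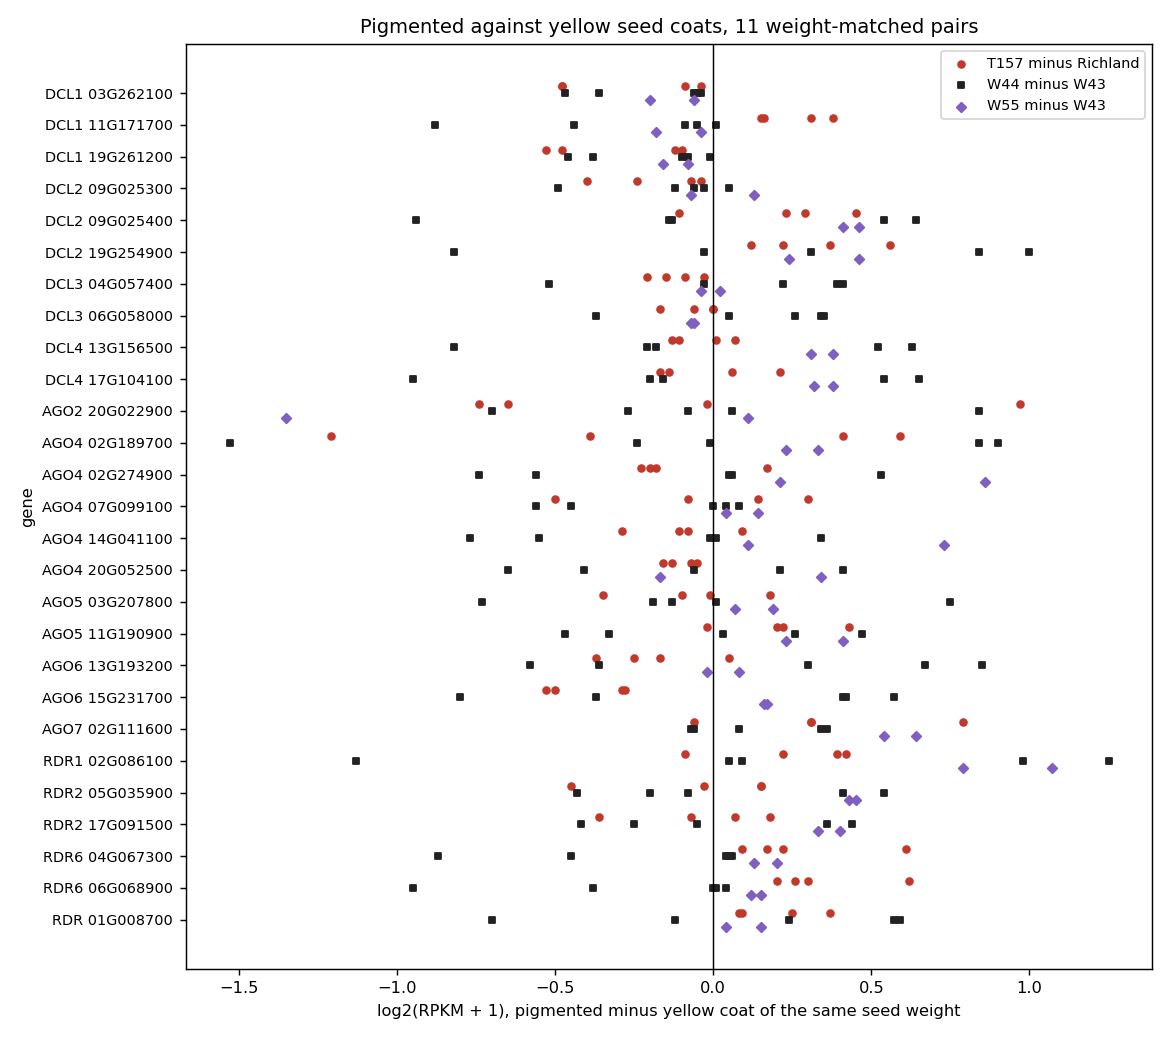
Each point is 1 weight-matched pair of coat libraries, with the difference in log2(RPKM + 1), pigmented minus yellow, on the x axis and one tested gene per row (red T157 minus Richland, black W44 minus W43, purple W55 minus W43; 11 pairs). All points of the DCL1 genes Glyma.03G262100 and Glyma.19G261200 lie below 0, those of Glyma.09G025300 do so in 9 of 11 pairs, and most other rows spread to both sides.

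Many of the members were lower in leaves than in young roots. Of 27 members tested 15 were lower in leaf (T157 and Richland) than in young root (W55 and W54) and none was higher, against 38.6% lower and 19.4% higher among all 31734 genes (58% called). The median member difference was -1.04, against -0.32 for all genes. The leaf and root libraries come from different lines, so line and organ cannot be told apart here. The 9 DCL genes that fell, of 11 tested, included members of all 4 types.

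The largest differences were in the RDR and AGO5 genes. Glyma.01G008700 had 0.226 and 0.0794 RPKM in leaf and 10.5 and 8.10 RPKM in root, a difference of -3.15 ± 0.19 (adjusted p = 0.000158). The young roots also exceeded every other library for this gene, the highest of which was UC501 coat with 2.17 RPKM. The flooded roots of W43 seedlings did not share this, with 0.922 and 1.11 RPKM. AGO5-type Glyma.11G190900 had 2.81 and 1.51 RPKM in leaf and 29.6 and 21.6 RPKM in root (-3.08 ± 0.29, adjusted p = 0.00053). RDR1-type Glyma.02G086100 averaged 1.36 RPKM in leaf and 10.4 RPKM in root (-2.29 ± 0.23, adjusted p = 0.000608), and AGO5-type Glyma.12G083500 averaged 0.0825 RPKM in leaf and 3.71 RPKM in root (-2.09, adjusted p = 0.00121). DCL2-type Glyma.09G025300 averaged 0.429 RPKM in leaf and 1.95 RPKM in root (-1.06 ± 0.21, adjusted p = 0.00744), and the leaf values were its lowest outside the W55 5-6 mg coats.

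The other DCL genes that fell were DCL3-type Glyma.04G057400 (-1.61) and Glyma.06G058000 (-1.07), DCL2-type Glyma.19G254900 (-1.48) and Glyma.09G025400 (-1.04), DCL4-type Glyma.17G104100 (-1.30), Glyma.13G156500 (-1.27) and Glyma.12G152800 (-1.25), and DCL1-type Glyma.19G261200 (-0.72). The remaining Argonautes that fell were AGO2-type Glyma.20G022900 (-1.36) and the short AGO4 model Glyma.14G127400 (-1.20). From the wider list, 22 of 70 genes were lower and 1 higher in leaf, beside 38.6% lower and 19.4% higher among all genes. The median difference of the wider list was -0.28, against -0.32 for all genes, so it did not share the shift of the members. The gene that was higher, SGS3-type Glyma.08G184600, differed by 1.72. The lower ones with the largest differences were IDN2-type Glyma.08G269000 (-1.34), SGS3-type Glyma.05G198500 (-1.33), AGO1-type Glyma.18G126300 (-1.28), SDE5-type Glyma.13G240200 (-1.23) and KTF1-type Glyma.10G276900 (-1.18). Leaving out 1 of the 4 libraries gave 5 to 21 lower members, with 1 library then standing for its organ.

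Against early coats of the same lines (T157 and Richland, 4 libraries), leaves were lower for 15 of 28 members and higher for none. The share among all 30738 genes was 36.2% lower and 17.4% higher (53.6% called). The leaf libraries carry higher title numbers than all of these coats, so organ and series cannot be told apart. Here the AGO4 genes led. Glyma.14G041100 had 5.04 and 2.27 RPKM in leaf, against 15.9, 17.9, 19.8 and 16.8 RPKM in coat (-2.06 ± 0.27, adjusted p = 0.00176), and Glyma.02G274900 averaged 4.72 RPKM in leaf and 21 RPKM in coat (-2.0). The remaining Argonautes that fell were Glyma.11G190900 (AGO5, -1.67), the short AGO4 model Glyma.02G189700 (-1.46) and AGO7-type Glyma.02G111600 (-0.95). Among RDR genes Glyma.02G086100 (-1.43), Glyma.01G008700 (-1.17) and the RDR6 pair Glyma.04G067300 (-1.08) and Glyma.06G068900 (-1.05) fell. Among DCL genes the DCL4 pair Glyma.17G104100 (-1.46) and Glyma.13G156500 (-1.23), the DCL2 genes Glyma.09G025400 (-1.19) and Glyma.19G254900 (-0.87) and DCL3-type Glyma.04G057400 (-0.69, adjusted p = 0.0487) fell. Glyma.09G025300 averaged 0.429 RPKM in leaf and 2.53 RPKM in early coat (-1.31 ± 0.24, adjusted p = 0.00631). In the wider list 27 of 78 genes were lower and 2 higher in leaf; the AGO10 genes Glyma.04G150900 and Glyma.06G213300 (-2.53 and -2.20), the small RNA methylase HEN1 genes Glyma.08G081600 and Glyma.05G126600 (-2.03 and -1.59), SGS3-type Glyma.19G089500 (-1.87) and the RNA polymerase IV gene Glyma.11G026700 (-1.44) differed most. Without 1 of the 6 libraries, 5 to 15 members were lower.

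**Figure D5:**
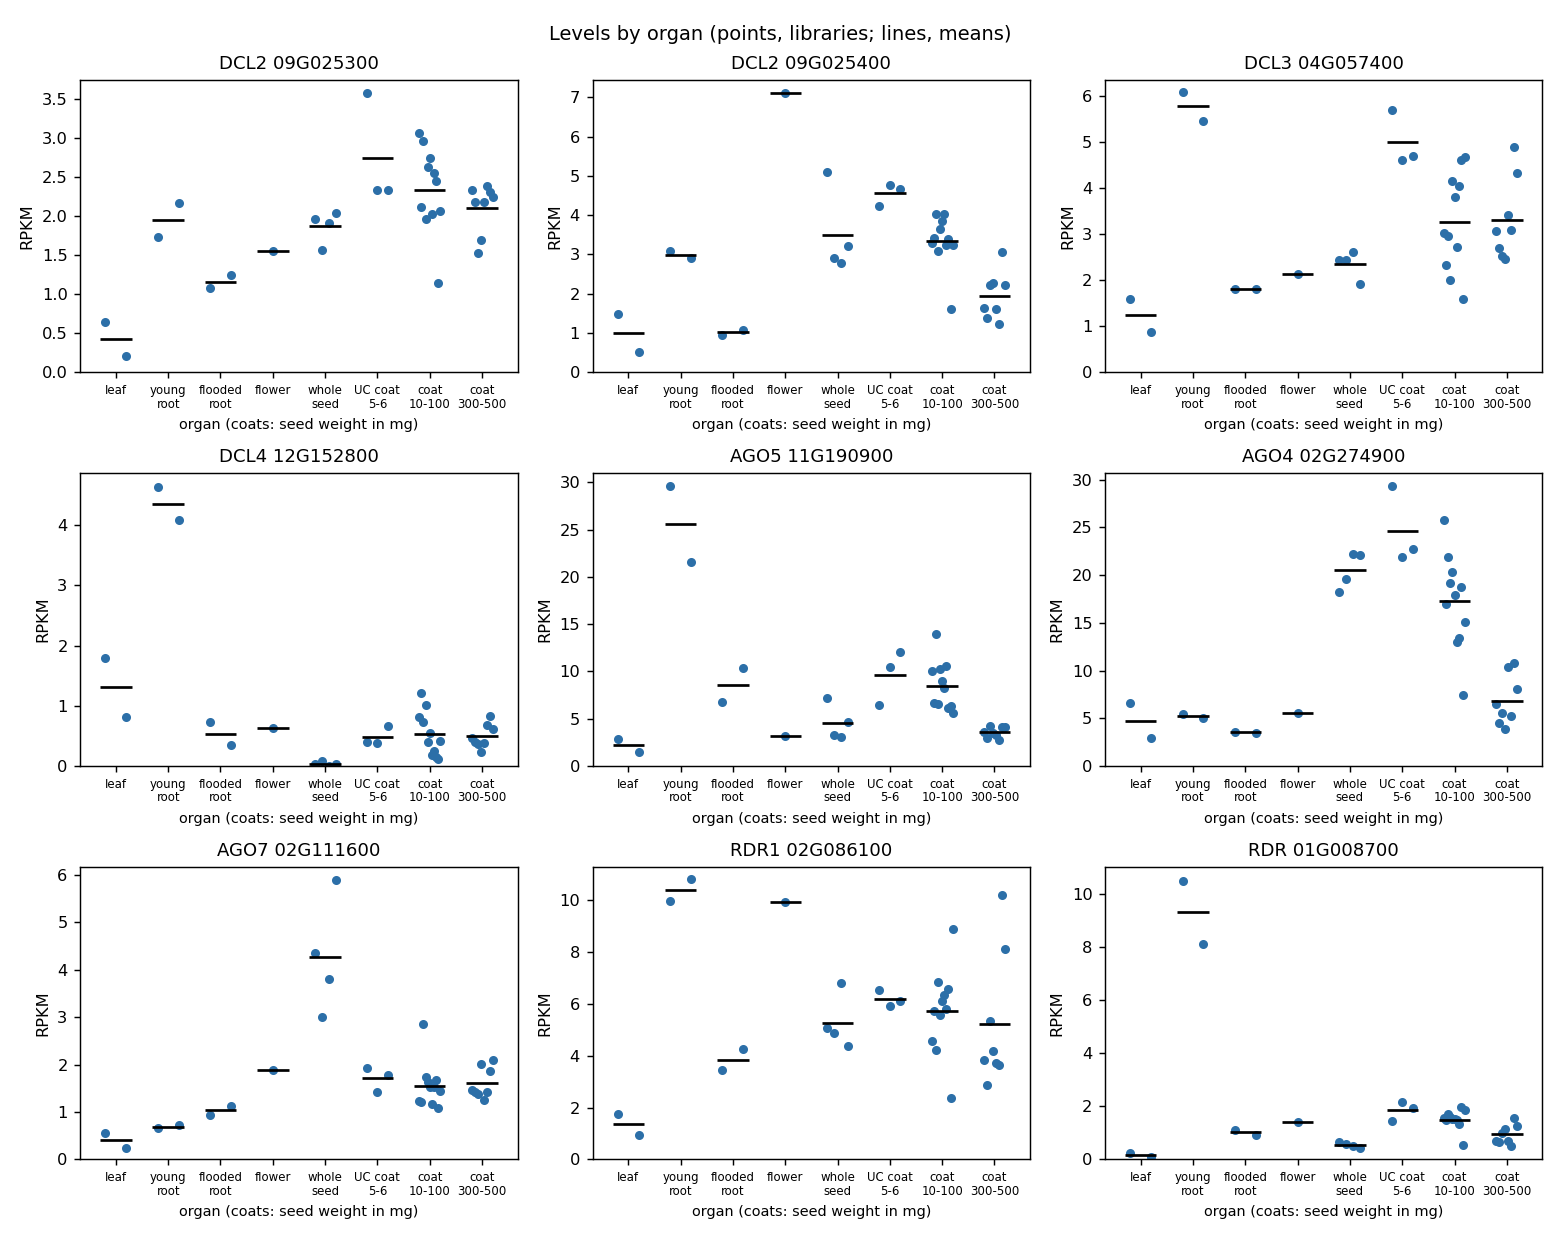
RPKM (y axis) by organ and, for coats, seed weight (x axis) for 9 members, 1 point per library with a line at the mean; the W55 5-6 mg coats are not drawn. AGO5 Glyma.11G190900 and RDR Glyma.01G008700 are highest in young root, AGO4 Glyma.02G274900 is high in early coats and whole seeds, and DCL2 Glyma.09G025300 is lowest in leaf.

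Roots were compared with early coats of their own lines, 2 root libraries (W55 and W54) with 5 coats (W55 at 5-6 mg and W43 at 10-100 mg). The root libraries carry higher title numbers than all 5 coats, so organ and title number cannot be told apart. Of 28 members 12 were higher and 2 lower in root, against 30.2% higher and 6.68% lower among all 29889 genes (36.9% called). This comparison holds both W55 5-6 mg libraries, and without them 13 members were higher and 8 lower, and 67.5% of all genes were called. Leaving out 1 library at a time gave 3 to 24 higher members. Each member value below is therefore given first for all 5 coats and then without the W55 ones. All 12 higher members were called both ways. The short DCL4 model Glyma.12G152800 had 4.63 and 4.08 RPKM in root and 0.228 RPKM on average in coat, 2.17 ± 0.19 higher, and 1.96 without W55. Glyma.01G008700 was higher by 2.59 (2.03 without W55), Glyma.11G190900 by 2.60 (1.38), Glyma.12G083500 by 1.74 (1.44) and Glyma.02G086100 by 1.67 (0.70). AGO5-type Glyma.03G207800 was lower by -1.05 (-1.31 without W55) and the short AGO4 model Glyma.02G189700 by -0.97 (-1.76).

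The other members higher in root were all DCL genes. Their differences were much smaller without the W55 coats: DCL1-type Glyma.19G261200 differed by 1.52 (0.60 without W55), Glyma.11G171700 by 1.26 (0.41) and Glyma.03G262100 by 1.21 (0.36, adjusted p = 0.0492). DCL3-type Glyma.04G057400 differed by 1.52 (0.59 without W55), Glyma.06G058000 by 0.88 (0.35), DCL2-type Glyma.19G254900 by 1.41 (0.72) and DCL4-type Glyma.13G156500 by 1.38 (0.50). The AGO4 genes Glyma.02G274900 and Glyma.14G041100 were called lower in root only without the W55 coats, by -1.52 and -1.54. DCL2-type Glyma.09G025300, at 2.17 RPKM in the W54 root and 1.74 RPKM in the W55 root, then differed by -0.23 (adjusted p = 0.197). From the wider list, 16 of 68 genes were higher and 1 lower in root with the W55 coats, and 20 higher and 24 lower of 75 without them, beside 31.1% higher and 36.4% lower among all 32247 genes then tested. SGS3-type Glyma.05G198500 was higher by 2.57 (2.17 without W55), AGO1-type Glyma.18G126300 by 3.22 (1.06), KTF1-type Glyma.20G115100 by 2.54 (1.04) and Glyma.20G112800 by 2.29 (1.07), and IDN2-type Glyma.18G038300 by 1.87 (0.61). AGO1-type Glyma.16G217300 was higher by 2.02, and by 0.39 without W55 (adjusted p = 0.0549).

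W55 coats of 5-6 mg were also set against W55 whole seeds, 2 libraries each. All 20 members tested were lower in the coats, as were 95.5% of all genes (1.69% higher, 97.2% called), beside the 88.6% and 80.6% of reads on undescribed models in these coats. On the rescaled values 8 members passed the filter and 3 of them were lower, Glyma.02G274900 (-1.01), Glyma.14G041100 (-0.81) and AGO6-type Glyma.15G231700 (-1.35). Scaled over described models, 17 of 25 members tested were lower and none higher, with a median of -0.89, against -0.30 for all genes. The number of calls thus moved with the scaling. Glyma.09G025300 had 0.0976 and 0.249 RPKM in these coats and 1.56 and 1.91 RPKM in W55 whole seeds.

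Whole seeds at 5 days after flowering, 4 libraries of T157, Richland and W55, held the highest values of several members and are given as a description. The AGO7 genes Glyma.02G111600 and Glyma.01G053100 reached 2.99 to 5.89 RPKM and 3.28 to 4.76 RPKM. AGO6-type Glyma.15G231700 had 4.77 to 8.42 RPKM and Glyma.13G193200 3.0 to 4.32 RPKM, and AGO5-type Glyma.03G207800 had 3.53 to 7.65 RPKM. Low in the same seeds were the short models DCL1 Glyma.11G171700 (0.223 to 0.480 RPKM, against 0.870 to 7.74 RPKM in early coats, and 1.89 RPKM as the lowest there without the W44 50-100 mg library), DCL4 Glyma.12G152800 (up to 0.0764 RPKM) and DCL2 Glyma.19G254900 (0.197 to 0.590 RPKM).

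The last comparisons have 1 library a side and so no test and no replicate check; members past a fold of 2 on the scale of RPKM + 1 are named. In the flower against the W43 coat of 25-50 mg 1 of 30 members was past it upward and 5 downward, beside 18.8% and 11.1% of all genes. The DCL2-type short model Glyma.15G131500 had 3.71 RPKM in the flower and 0.744 RPKM in the coat. The 5 that were lower were the AGO4 genes Glyma.02G274900 (5.58 RPKM in the flower and 18 RPKM in the coat), Glyma.14G041100, Glyma.20G052500 and Glyma.02G189700 and AGO5-type Glyma.11G190900. The flower also had the highest Glyma.09G025400 value of all libraries, 7.12 RPKM.

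After 24 h of flooding, against 12 h, AGO2-type Glyma.20G022900 alone was past the fold among 27 members, with 8.49 RPKM at 24 h and 2.65 RPKM at 12 h (4.91% of all genes higher, 1.07% lower). UC9 against UC501 coats at 5-6 mg gave AGO5-type Glyma.03G207800 with 3.88 RPKM in UC9 and 0.168 RPKM in UC501, and AGO6-type Glyma.15G231700 with 4.25 RPKM in UC9 and 0.920 RPKM in UC501 (1.1% of all genes higher, 1.79% lower). UC9 is a Clark line and UC501 Harosoy, so cultivar and coat colour cannot be told apart in this pair. DCL2-type Glyma.09G025300 had 3.58 RPKM in UC9 and 2.33 RPKM in UC501. UC508 against UC501 gave no member (0.187% of all genes higher, 0.398% lower), with AGO2-type Glyma.20G022900 at 23.5 RPKM in UC508 and 12.6 RPKM in UC501. T157 against Richland gave no member in leaf (6.45% higher, 2.3% lower) and Glyma.15G131500 in whole seed, with 2.95 RPKM in T157 and 0.890 RPKM in Richland (1.5% higher, 1.91% lower).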

How the data were processed

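RNA-seq tables of 46 libraries were used, 38 in a table of lines and 8 in a table of hilum dissections; 4 further columns matched no label and were not used. The values were RPKM per transcript model as deposited by the authors, from reads aligned with Bowtie per the submitters' processing notes; the genome build is not given in the sources used here. Libraries were made with TruSeq or stranded TruSeq kits per the labels' protocols, and which applied to each is not stated, so antisense reads cannot be resolved. Reads of near-identical genes cannot be resolved here either. For each of 56044 genes the model with the longest cDNA was kept. RPKM times cDNA length gave whole reads within 0.01 read, from which library totals were recovered; a gene with values near 1 read is counting noise.

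Differences were fitted on log2(RPKM + 1) with limma 3.58.1 (R 4.3.3, trended variance) over genes averaging at least 1 RPKM, with Benjamini-Hochberg adjustment and a threshold of 0.05. The fits were tested on simulated data. Line comparisons used weight as a block. The W44 75-100 mg coat had no W43 partner and entered only the comparison of weights. The hilum fit held stage as a term. Replicate number, which follows the title numbers, was tried as a block. Deviations of libraries with the same replicate number correlated at 0.442 to 0.655 in 6 pairs. Alternatives were a pseudocount of 0.1, no filter, rescaling by median ratios or over described models, and leaving out each library. The members and lists were chosen with earlier results of these data known. The text names each called member, the most abundant tested member of a family with none called, Glyma.09G025300, and up to 6 called genes of the wider list per comparison. Tables were made with python 3.11.15 and pandas 2.3.3. RNA sequences of the members were not used here.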

Additional observations from a re-analysis of the deposited data

Results flagged for a closer look

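Within the 4 coat groups of 4 to 6 libraries, 11 of 108 gene and group combinations held 1 library far from the others. The rule would flag about 1 in 20 groups of like replicates by chance, but these groups pool seed weights over which members differ, so that rate is no measure for them. In W44, 6 of these were low values in the 50-100 mg library, which has 56.2% of its reads on undescribed models. They were 1.59 RPKM for DCL3-type Glyma.04G057400 (nearest 4.04), 1.43 RPKM for RDR6-type Glyma.04G067300 (nearest 2.52), 1.68 RPKM for RDR6-type Glyma.06G068900 (nearest 3.12), 1.15 RPKM for DCL2-type Glyma.09G025300 (nearest 2.06), 0.903 RPKM for RDR2-type Glyma.17G091500 (nearest 1.73) and 1.77 RPKM for DCL4-type Glyma.17G104100 (nearest 4.26). The W44 10-50 mg library was high for AGO5-type Glyma.11G190900, 10.5 RPKM with the nearest at 6.33.

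In T157 the 50-100 mg library was high for the short models Glyma.11G171700 (DCL1, 7.74 RPKM, nearest 4.21) and Glyma.19G254900 (DCL2, 3.12 RPKM, nearest 1.88), and the 10-25 mg library for AGO6-type Glyma.15G231700 (1.99 RPKM, nearest 1.0). In Richland the 10-25 mg library was high for AGO2-type Glyma.20G022900, 21.4 RPKM with the nearest at 5.16.

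The late against early difference in the T157 and Richland lines minus that in the W44 and W43 lines passed the threshold on rescaled values for AGO4-type Glyma.02G274900 (-0.91) and DCL4-type Glyma.13G156500 (-0.70), and for no member as deposited.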

How the results depend on the processing

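Of 4614 refitted gene values, 4368 kept direction and side of the threshold, 170 lost their call, 67 gained one and 9 reversed. The reversed ones were Glyma.13G156500 late against early within W44 (0.39); in root against early coat Glyma.02G274900 (-1.58 to 1.5) and Glyma.14G041100 (-1.67 to 1.51) on leaving out 1 library, positive without the W54 root, and Glyma.04G067300 (-0.35), Glyma.06G068900 (-0.50) and Glyma.13G193200 (-0.41) without the W55 coats; and in W55 coat against whole seed Glyma.03G207800 (0.18 rescaled) and Glyma.11G190900 (0.27 rescaled, 0.09 over described models). With no filter, lower members came to 5 (hilum), 16 (late), 0 (root) and 34 (W55 coat), higher members to 1 (leaf against coat) and 7 (root), and the percent of all genes called to 0.0 (stage), 0.00178 (W55 late), 0.00178 (pigmented), 33.1 (leaf against coat) and 60 (W55 coat). Rescaling gave 3 lower members in hilum and in the W55 coat, 1 higher in leaf against root (Glyma.13G193200), and 0.0209% (W55 late), 59.7% (root) and 46.3% (W55 coat) of all genes called; scaling over described models gave 0.0233%, 57.1% and 49.4%. The pseudocount of 0.1 gave 2.11% for stage. With replicate number as a block, hilum gave 4 higher and 10 lower members, and stage 2 lower members and 8.98% of all genes. The line fits without the weight block called 0.0138% (W55 late) and 0.0% (pigmented). Within W44 5 members were lower late, in W44 and W43 together 4, with the shares of all genes not given here. Without the W55 coats 8 members were lower in root, with 67.5% of all genes called. The causes were not tested, except that fits on fewer libraries or on more genes differ by construction.

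Rescaling moved the share of called genes that were higher to 49.4% from 36.1% (stage), to 49.0% from 33.4% (leaf against root), to 52.2% from 32.4% (leaf against coat), to 53.3% from 81.9% (root, 49.7% over described models) and to 60.8% from 1.74% (W55 coat, 33.3% over described models).

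Leaving out 1 library at a time, members called higher and lower and the percent of all genes called ranged over 1 to 3, 3 to 12 and 27.3 to 40.5 (hilum), 2 to 2, 9 to 17 and 53.3 to 69.1 (late), 0 to 1, 5 to 21 and 29.2 to 71 (leaf against root), 0 to 0, 5 to 15 and 22 to 50.3 (leaf against coat), 3 to 24, 0 to 4 and 28.5 to 76.7 (root) and 0 to 0, 14 to 24 and 84.6 to 98.3 (W55 coat). No member was called in the others (0 to 0), with 0.0 to 0.17 percent of genes for stage, 0.0 to 0.0 for T157, 0.0 to 0.00347 for W44, 0.0 to 0.572 for W55 late and 0.0 to 0.0519 for pigmented. Members under about 1 RPKM rest on few reads in the shallowest libraries.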

Other observations

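The short DCL1 model Glyma.11G170100 separated libraries by the number in their titles, a split chosen after its values were seen. It had 0.972 to 2.36 RPKM (median 1.68) in the 10 libraries numbered 3 to 71 and 0 to 0.287 RPKM (median 0.133) in the other 36, whose numbers are higher, and no other member of the 39 was without overlap between these libraries.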
